A study of Rattus norvegicus with 10 samples.

Results

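The libraries described are small RNA libraries of rat subcutaneous tissue taken at 34 days of repeated mechanical stimulation (MS_A) and before any therapy (CIA_B). They are 4 of the 10 libraries of the series, 2 in each group, and they were chosen by their labels alone. All animals were female Wistar rats with collagen-induced arthritis (CIA), an inflammatory joint disease raised by immunization with bovine type II collagen. CIA_B rats had no therapy yet. MS_A rats were punctured with a short needle that was twirled at points of the lower back and below the knee. The study repeated this stimulation every other day. The labels call this arm acupuncture. The other groups, also of 2 libraries, are stimulation at 1 h (MS_E) and placebo at 1 h and 34 days (PLA_E, PLA_A). The placebo was saline injected into the peritoneum, given weekly. The tissue was excised around the stimulated points at sacrifice, so each library comes from tissue of other animals than the groups it is compared with, and all animals were shaved. The labels name the tissue muscle and the study's methods subcutaneous tissue, while the text of the series also mentions blood. Time since immunization and therapy cannot be told apart in MS_A against CIA_B, since CIA_B was taken at the onset of therapy. The age of the animals is not given in the sources used here.

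miRNAs are short RNAs cut from hairpin precursors, whose 5p or 3p arm guides the silencing complex to target messages through the seed, bases 2 to 8. Some mark a tissue or cell type, such as miR-1 and miR-133 in striated muscle, miR-208b and miR-499 in slow-twitch fibres, miR-223 in myeloid cells and miR-451 in red blood cells. Others come from one long transcript, among them the many hairpins of the imprinted Dlk1-Dio3 region, which are expressed from the maternal chromosome and are known from muscle and its progenitors.

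The 4 miRNAs that passed the thresholds of the test, and 2 others, are shown with their RefSeq sequences, seeds in capitals. miR-410-3p and miR-539-3p come from the same cluster as miR-381-3p.
miR-381-3p: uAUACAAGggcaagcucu
miR-184: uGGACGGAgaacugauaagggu
miR-223-3p: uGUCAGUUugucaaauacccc
miR-7a-1-3p: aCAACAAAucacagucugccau
miR-410-3p: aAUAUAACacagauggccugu
miR-539-3p: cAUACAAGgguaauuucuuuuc
On the RefSeq assembly GRCr8 they lie at chr6:134562422-134562439 (miR-381-3p, plus strand), chr8:99222991-99223012 (miR-184, minus strand), chrX:65151450-65151470 (miR-223-3p, plus strand), chr17:6278751-6278772 (miR-7a-1-3p, plus strand), chr6:134579808-134579828 (miR-410-3p, plus strand) and chr6:134563646-134563667 (miR-539-3p, plus strand). Each is an arm of a miRNA hairpin. Of the 324 tested miRNAs with a RefSeq sequence, miR-539-3p was the 1 other with the seed of miR-381-3p, and no other had the seeds of miR-184, miR-223-3p or miR-7a-1-3p.

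Of 723 mature miRNAs in the files, 359 were tested, those that reached 1 cpm (the count scaled to the library total) in 5 or more of the 10 libraries. The 359 held 99.97% of the reads, and the other 364 were not tested. CIA_B held 1513799 and 6385154 reads on miRNAs in replicates 1 and 2, and MS_A held 6244356 and 7067292. Values are cpm scaled by TMM factors, on which 3 counts equal 2.60 cpm in CIA_B replicate 1, the smallest library, and 0.441, 0.712 and 0.366 cpm in CIA_B replicate 2 and MS_A replicates 1 and 2. Libraries of 1 group were unlike: miR-1-3p was at 104864 and 122962 cpm in CIA_B replicate 1 and MS_A replicate 2, and at 10115 and 12057 cpm in CIA_B replicate 2 and MS_A replicate 1. The miR-1-3p term of an alternative fit marked each library as high or low in miR-1-3p within its group. Cell content and RNA per cell cannot be told apart in such bulk samples.

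At 34 days, 2 miRNAs, miR-7a-1-3p and miR-223-3p, were called higher and miR-381-3p and miR-184 lower. A miRNA was called at over 2-fold change with p under 0.05 before adjustment. Called, passed and no call refer to edgeR on all 10 libraries wherever no other tool, term, setting or set of libraries is named. These 4 are 1.11% of the 359 miRNAs tested, 0.557% in each direction. Adjusted by Benjamini-Hochberg over all 359, the smallest value in the quasi-likelihood fit of edgeR was 0.994, and 0 miRNAs were under 0.05. For each single miRNA given with a log2 fold change of MS_A over CIA_B the adjusted value was 0.994 as well. Before adjustment 4 were under 0.05 at any fold, and DESeq2 and limma-voom on all 10 libraries gave 6 and 4 called miRNAs, likewise none by adjusted p. DESeq2 called miR-200c-3p (higher) and miR-410-3p (lower) beside the 4, and limma-voom called miR-350 (higher) in place of miR-184. With library totals only, the calls were 0 higher and 2 lower. With 2 libraries against 2 an exact two-sided permutation test cannot go below p = 0.333, so it was not used for single miRNAs.

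miR-381-3p, an arm of a Dlk1-Dio3 hairpin, was at 41.5 and 34.7 cpm in the CIA_B libraries and at 11.9 and 10.1 cpm in the MS_A libraries. The groups stood well apart, with means of 38.1 ± 4.83 and 11.0 ± 1.23 cpm (SD, n = 2 each). The log2 fold change was -1.76 (standard error 0.60). The level was also low in both PLA_A libraries, at 15.2 and 10.9 cpm. The libraries at 1 h were under both CIA_B libraries as well, at 33.5 and 17.2 cpm (MS_E) and 8.58 and 24.3 cpm (PLA_E). MS_A against PLA_A gave a difference of -0.24 on the log2 scale (adjusted p = 0.999 in edgeR). It was not called with either MS_A library left out (-1.82 and -1.70). The other arm, miR-381-5p, had 2 and 0 counts in CIA_B and 0 and 3 in MS_A and was not tested. miR-539-3p, which shares the seed, was at 9.52 and 2.06 cpm in CIA_B and 1.90 and 1.95 cpm in MS_A and did not pass the test (log2 fold change -1.28). The nearest of these libraries, CIA_B replicate 2 and MS_A replicate 2, held 14 and 16 reads of it and were almost level. Its fold rests on the 11 reads of CIA_B replicate 1, and was -0.16 without that library and -2.10 without CIA_B replicate 2.

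miR-184, a miRNA of surface epithelia and neural tissue, was at 12.1 and 11.5 cpm in CIA_B and at 2.13 and 2.68 cpm in MS_A. In counts these are 14 and 78 reads against 9 and 22, so that the level rests on few reads in either group. The log2 fold change of -2.12 (standard error 0.81) was the most negative of all 359. Leaving out any 1 of the 4 libraries gave -2.32 to -1.96, each time without a call, and limma-voom on all 10 libraries gave -2.23, also without a call. The PLA_A libraries held 4.48 and 2.37 cpm and the PLA_E libraries 3.35 and 3.59 cpm, all lower than CIA_B, whereas MS_E held 39.8 and 5.31 cpm.

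miR-223-3p, abundant in neutrophils and monocytes, was at 10.4 and 28.1 cpm in CIA_B and at 57.4 and 51.6 cpm in MS_A, 2.83-fold higher by the means. The low value of CIA_B replicate 1 rests on 12 counts. The log2 fold change was 1.45 (standard error 0.56), and 0.85 without CIA_B replicate 1. The call was lost there and also without either MS_A library (1.38 and 1.42) or PLA_A replicate 1 (1.41). PLA_A stood at 43.3 and 45.9 cpm, also higher than both CIA_B libraries. At 1 h MS_E held 64.7 and 70.1 cpm and PLA_E 52.0 and 25.1 cpm, of which only the last was not above both CIA_B libraries. The other arm, miR-223-5p, had 1.73 and 2.35 cpm in CIA_B and 4.74 and 0.853 cpm in MS_A, which overlap.

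miR-7a-1-3p, the minor arm of a miR-7 hairpin, was at 6.06 and 3.68 cpm in CIA_B and at 14.0 and 9.51 cpm in MS_A, with counts from 7 to 78. The log2 fold change was 1.26 (standard error 0.51). It was 0.91 with CIA_B replicate 2 left out and 1.02 with MS_A replicate 1 left out, without a call in either. Nor was it called with no filter, with the replicate block or on only the 4 libraries (1.24 to 1.30). PLA_A held 10.7 and 14.2 cpm, so that MS_A and PLA_A overlapped. At 1 h MS_E held 9.11 and 12.2 cpm and PLA_E 7.24 and 8.55 cpm, all above both CIA_B libraries. The guide arm miR-7a-5p, which other miR-7 hairpins also give, was at 51.9 and 12.2 cpm in CIA_B against 31.3 and 110.1 cpm in MS_A. It did not separate the groups and followed the miR-1-3p levels of the libraries instead. With the miR-1-3p term edgeR called miR-7a-5p higher.

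**Figure D1:**
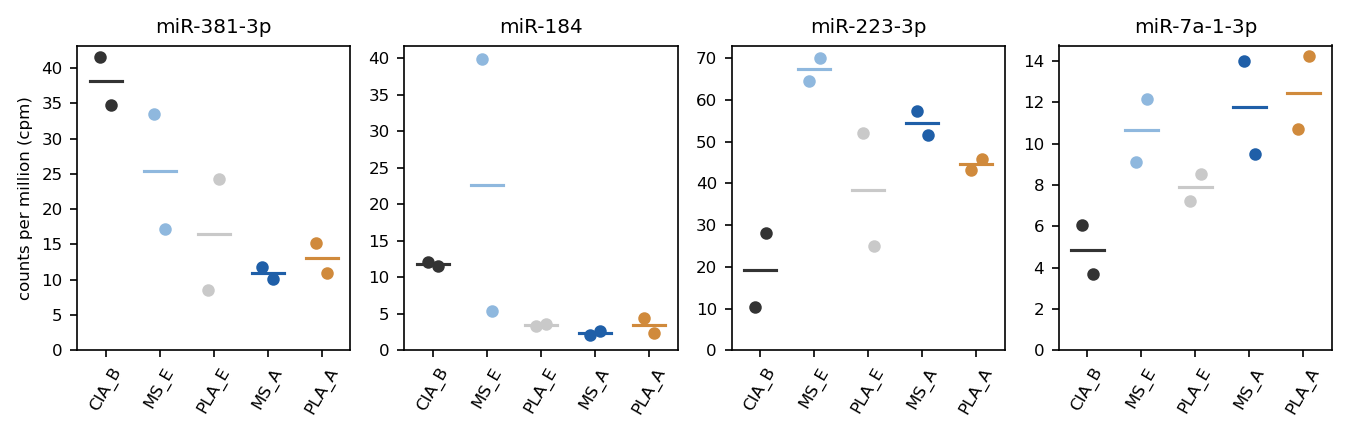
Levels of the 4 called miRNAs in cpm in each library (points) of the 5 groups, with the mean of the 2 libraries as a bar. In MS_A, miR-381-3p and miR-184 sit under and the other 2 above both CIA_B libraries, and PLA_A lies on the same side as MS_A in each panel.

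Levels in both MS_A libraries exceeded both CIA_B libraries for 58 miRNAs (16.2%) and were below both for 39 (10.9%) of the 359, together 27% of those tested, the 4 called included. The fitted fold was above 0 for 213 (59.3%) and below 0 for the rest (40.7%), with a median of 0.10 on the log2 scale. The miRNAs nearest to the thresholds among the higher ones were miR-672-5p, miR-144-5p and miR-20a-5p, by their p before adjustment. miR-20a-5p, of the miR-17/92 cluster that promotes proliferation, was at 8.65 and 11.2 cpm in CIA_B and at 20.4 cpm in each MS_A library. miR-34a-5p, a target of p53, was at 9.52 and 17.5 cpm in CIA_B and 54.1 and 20.2 cpm in MS_A, separate but with a wide spread in MS_A. Its log2 fold change of 1.40 was 0.56 without MS_A replicate 1, and from 0.96 to 1.92 without each of the other 3 libraries. miR-672-5p rests on 1 read in CIA_B replicate 1, so its fold is not given.

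The list with the most members below 0 was the Dlk1-Dio3 cluster. Of its 94 names in the files 56 were tested, of which 54 have a RefSeq sequence, all on the plus strand of chr6:134306550-134579828 on GRCr8. The fitted fold was below 0 for 45 of the 56 (80.4%, against 40.7% of all tested), and the median log2 fold change was -0.73 against 0.10 over all tested. Both MS_A libraries were below both CIA_B libraries for 22 members (39.3%, against 10.9% of all), and above both for 3. In edgeR a single member, miR-381-3p, was called (0.557% of all 359 were called lower), and DESeq2 also called miR-410-3p. The members share a transcript and so are not independent of each other.

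Summed over the 56 members, the cluster was at 5695 and 4691 cpm in CIA_B and 2662 and 3686 cpm in MS_A. Both MS_A libraries were lower, but MS_A replicate 2 less so than replicate 1. Without miR-127-3p, the most abundant member, the sums were 3152 and 2283 cpm against 1139 and 2236 cpm, where MS_A replicate 2 came close to CIA_B replicate 2. The PLA_A sums were 2234 and 2832 cpm with miR-127-3p. At 1 h the sums were 5840 and 5977 cpm in MS_E and 2900 and 5337 cpm in PLA_E. PLA_E replicate 1 thus lay between the 2 MS_A libraries.

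miR-127-3p was at 2542 and 2408 cpm in CIA_B and at 1523 and 1451 cpm in MS_A, and thus differed more between the groups than within either. Its log2 fold change of -0.73 (standard error 0.54) did not pass. miR-410-3p, at the far end of the cluster, was at 138.5 and 119.0 cpm in CIA_B and 42.5 and 52.4 cpm in MS_A, a log2 fold change of -1.43 (standard error 0.68). miR-434-5p was at 52.8 and 42.1 cpm against 23.5 and 26.7 cpm, and miR-136-3p at 158 and 192 cpm against 76.4 and 112 cpm. These members each separated the groups, and none of them was called in edgeR on all 10 libraries without the miR-1-3p term. miR-410-3p was called by DESeq2, by edgeR with that term, and on only the 4 libraries.

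miR-369-5p was at 34.6 and 15.9 cpm in CIA_B and 8.30 and 12.9 cpm in MS_A. miR-493-5p and miR-127-5p, arms of hairpins toward the other end, stood at 11.2 and 12.1 cpm and at 9.52 and 14.998 cpm in CIA_B, against 4.03 and 5.73 cpm and 5.46 and 4.87 cpm in MS_A. Opposite to most of the cluster, miR-494-3p was at 1.73 and 0.735 cpm in CIA_B and 1.90 and 17.4 cpm in MS_A. Its log2 fold change of 2.84 (standard error 1.95) rests on MS_A replicate 2, without which it was 0.61, and CIA_B replicate 1 held 2 counts. The other members above both CIA_B libraries were miR-409a-3p and miR-495. On only the 4 libraries, edgeR and limma-voom called miR-493-5p and miR-127-5p lower, and edgeR called miR-494-3p higher. Of all 359, edgeR called 6 higher and 6 lower there.

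**Figure D2:**
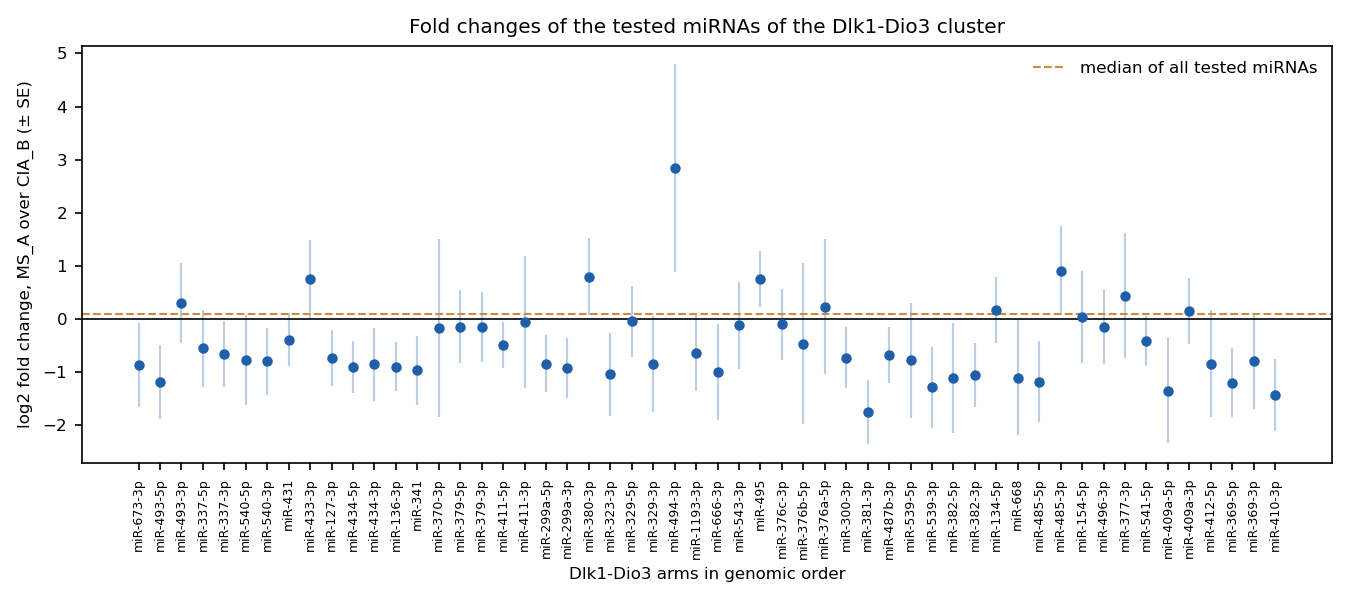
Log2 fold change of MS_A over CIA_B with its standard error (y) for the 54 tested Dlk1-Dio3 arms with a RefSeq sequence, in genomic order (x), and the median of all 359 tested miRNAs as a dashed line. Most points lie below 0 along the whole cluster, miR-381-3p lowest, while miR-494-3p stands at 2.84 with the widest error.

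The size of this shift depended on single libraries. With CIA_B replicate 1 left out the median of the 56 members was -0.14, and with MS_A replicate 1 left out -0.22, with 35 and 36 members still below 0, against -0.82 with CIA_B replicate 2 left out and -1.11 with MS_A replicate 2 left out. Under the other scalings and tools run on these libraries it lay between -0.59 (library totals only) and -0.79 (DESeq2). The median of the 56 for PLA_A against the same CIA_B libraries was -0.99, with 50 below 0 (159 of all 359). For MS_A against PLA_A the median was 0.36, with 45 above 0 (170 of all 359). Those comparisons share libraries with MS_A against CIA_B.

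A second view held the miR-1-3p level of the libraries alike. MS_A replicate 2 was set against CIA_B replicate 1, both high in miR-1-3p, and MS_A replicate 1 against CIA_B replicate 2, both low, as differences of log2(cpm + 1) with no test. In the cluster 37 of 56 members were lower in both pairs and 3 higher in both, against 83 lower and 120 higher of all 359. Over all miRNAs, 74 differed more than 2-fold in the high pair and 43 in the low pair, and 6 were more than 2-fold higher and 5 more than 2-fold lower in both. The 6 were miR-142-3p, miR-200c-3p, miR-223-3p, miR-34a-5p, miR-451-5p and miR-7a-5p, named here after their values were seen. The 5, named likewise, were miR-184 and 4 of the cluster, miR-381-3p, miR-382-5p, miR-409a-5p and miR-410-3p.

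**Figure D3:**
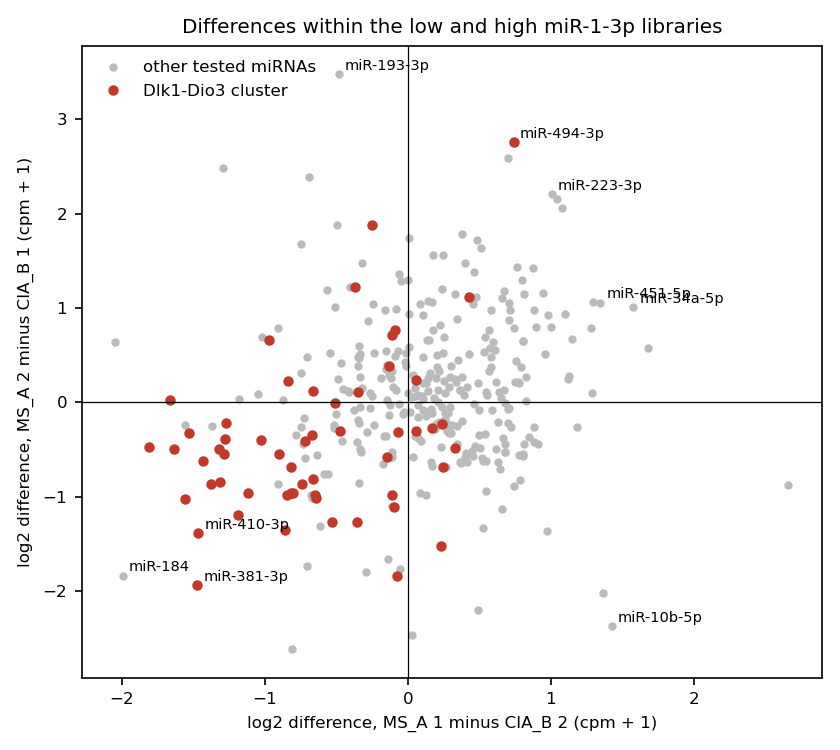
Difference in log2(cpm + 1) within the 2 low miR-1-3p libraries (x) and within the 2 high ones (y), MS_A minus CIA_B, for each of the 359 miRNAs, with the Dlk1-Dio3 members in red. Of the red points 37 lie below 0 on both axes, while miR-193-3p and miR-10b-5p differ in opposite directions in the 2 pairs.

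Among the miRNAs of myeloid cells and inflammation, all 9 tested had a fold above 0 (against 59.3% of all 359), with a median log2 fold change of 0.80, and 1 of them, miR-223-3p, was called (0.557% of all 359 were called higher). The 2 MS_A libraries were above both CIA_B libraries for 3 of the 9 (33.3%, against 16.2% of all tested). miR-21-5p, induced in inflamed and healing tissue, was at 1461 and 3066 cpm in CIA_B and 5703 and 2549 cpm in MS_A, which overlap. miR-146a-5p, a brake on Toll-like receptor signalling, was at 960 and 1053 cpm against 1629 and 832 cpm. The list summed to 4261 and 5897 cpm in CIA_B and to 10601 and 4972 cpm in MS_A, so that its level was set by MS_A replicate 1. Leaving out MS_A replicate 1 gave a median of 0.27, with 6 of the 9 above 0, and leaving out CIA_B replicate 1 gave 0.33. With limma-voom on all 10 libraries 8 of the 9 were above 0.

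The 10 tested miRNAs known from repair of skin wounds, of which miR-21-5p, miR-21-3p and miR-146a-5p also stand in the inflammation list, all had a fold above 0 (against 59.3% of all 359), and none was called. Their median was 0.35, and leaving out single libraries gave 0.14 (CIA_B replicate 1), 0.83 (CIA_B replicate 2), 0.23 (MS_A replicate 1) and 0.66 (MS_A replicate 2). miR-20a-5p and miR-34a-5p were the 2 that did not overlap, a share of 20% that is near the 16.2% of all tested. With the miR-1-3p term edgeR called miR-34a-5p higher, where 6 of all 359 were called higher. The sums were 2636 and 4489 cpm in CIA_B and 7721 and 3765 cpm in MS_A. With DESeq2 or its size factors 9 of the 10 were above 0, and without MS_A replicate 1 it was 7. For PLA_A against CIA_B the median of the list was 0.89.

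The miR-29 family, which represses collagen and other matrix genes, was above 0 in all 6 tested members (against 59.3% of all 359), with no call and a median of 0.71. miR-29c-3p was at 277 and 225 cpm in CIA_B and 371 and 546 cpm in MS_A, and miR-29a-3p at 996 and 1162 cpm against 1783 and 1162 cpm. Both MS_A libraries exceeded both CIA_B libraries for 4 of the 6, miR-29a-5p, miR-29b-3p, miR-29c-3p and miR-29c-5p, against 16.2% of all tested. The PLA_A libraries held 564 and 551 cpm of miR-29c-3p. With the miR-1-3p term edgeR called miR-29c-5p higher, where 6 of all 359 were called higher. Without CIA_B replicate 2 or MS_A replicate 2, 5 of the 6 were above 0.

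Of the miRNAs of red blood cells, miR-451-5p was at 19.9 and 12.9 cpm in CIA_B and 34.4 and 42.5 cpm in MS_A (log2 fold change 1.23, standard error 0.68). miR-144-5p, from the same transcript, was at 3.46 and 2.79 cpm against 7.12 and 7.56 cpm. miR-144-3p was at 0.865 and 1.76 cpm against 0.712 and 8.78 cpm, which overlap. The 3 had a median log2 fold change of 1.23, and none passed in edgeR on all 10 libraries. miR-451-5p was called on only the 4 libraries by edgeR and limma-voom, and by edgeR without MS_E replicate 1. The part of blood in the excised tissue was not tested.

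The slow-twitch fibre miRNAs, which lie in introns of myosin genes, were below 0 in all 3 tested (against 40.7% of all 359), with a median of -1.13 and no call in edgeR on all 10 libraries. For miR-208b-3p the CIA_B libraries held 513 and 432.5 cpm and the MS_A libraries 247 and 83.1 cpm (log2 fold change -1.52, standard error 1.04). miR-499-5p was at 313 and 153 cpm against 156 and 55.9 cpm. The MS_A libraries were lower for miR-208b-3p without overlap, whereas PLA_A was divided, at 690 and 61.8 cpm. The fold of miR-208b-3p was -2.45 without MS_A replicate 1 and -0.99 without MS_A replicate 2, and on only the 4 libraries edgeR and limma-voom called it lower. Leaving out CIA_B replicate 1 gave a median of -0.64 and leaving out MS_A replicate 1 gave -1.98, with 1 of the 3 above 0 in each case.

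The miR-181 family, known from lymphocyte development and muscle differentiation, was below 0 in all 8 tested members (against 40.7% of all 359), none called, with a median of -0.25. miR-181d-5p was at 139 and 175 cpm in CIA_B and 109 and 70.1 cpm in MS_A, and miR-181c-5p at 626 and 911 cpm against 554 and 417 cpm. These and miR-181c-3p were the 3 without overlap (37.5%, against 10.9% of all tested). Without CIA_B replicate 2 the median was 0.06, with 4 of the 8 above 0, and without CIA_B replicate 1 or MS_A replicate 1 it was -0.72 and -0.49.

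The medians of the let-7 and miR-30 families lay near that of all tested (0.10). The let-7 family, which promotes differentiation, had 15 of 18 members above 0 with a median of 0.11, and the miR-30 family 7 of 11 with a median of 0.13. The adipose and metabolic list, with miR-378a-3p and miR-193-3p, was above 0 in all 6 with a median of 0.53 and no call. Within it miR-193-3p was at 7.79 and 3.38 cpm in CIA_B and 2.13 and 96.8 cpm in MS_A, the largest fitted fold of all 359 at 3.16 on the log2 scale (standard error 2.14). That value rests on MS_A replicate 2, without which it was -1.19. In PLA_A miR-193-3p was at 89.7 and 7.84 cpm, likewise divided between the libraries. The endothelial list, with miR-126, was above 0 in all 5 with a median of 0.25.

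**Figure D4:**
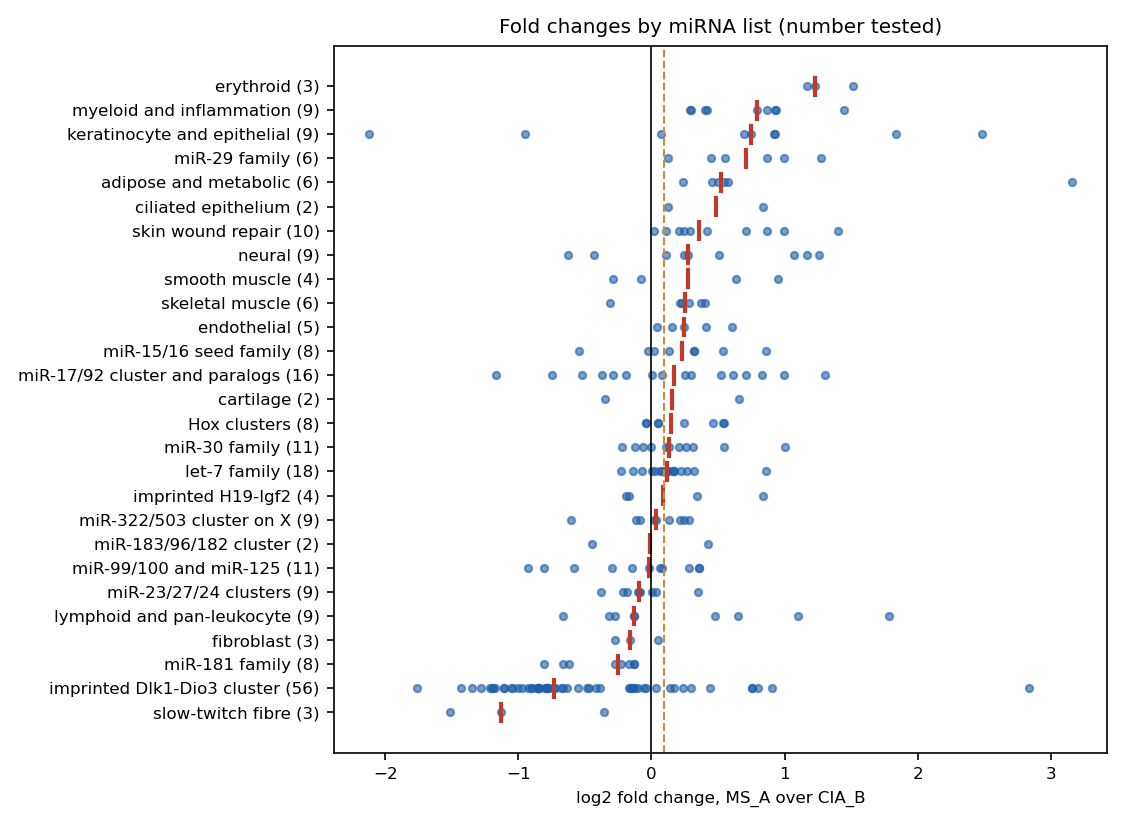
Log2 fold change of MS_A over CIA_B (x) of each tested member (points) of each list, with the list's median as a red bar, the median of all 359 tested miRNAs as a dashed line and the number tested in brackets. Medians run from -1.13 (slow-twitch fibre) to 1.23 (erythroid), and the Dlk1-Dio3 list is the largest.

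Among markers of keratinocytes and epithelia, 7 of 9 tested were above 0, with a median of 0.74, and miR-184 was the 1 called in edgeR, lower (0.557% of all 359). It was not called by limma-voom on all 10 libraries. miR-205, of basal keratinocytes, was at 17.3 and 32.5 cpm in CIA_B and 66.2 and 30.8 cpm in MS_A, with overlap. miR-200c-3p had 0 and 1 counts in CIA_B and was at 1.42 and 3.17 cpm in MS_A, low in all 4 libraries, and DESeq2 called it higher. The list summed to 45.9 and 87.8 cpm in CIA_B and 126.7 and 83.0 cpm in MS_A. miR-184 thus moved opposite to most of the list, and the part of epithelial content in its level was not tested.

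Skeletal muscle miRNAs were present at high levels in each library, and 5 of 6 were above 0 with no call. miR-133a-3p was at 117214 and 77100 cpm in CIA_B and 122982 and 128713 cpm in MS_A, while miR-206-3p divided the libraries like miR-1-3p, at 14925 and 1867 cpm against 1531 and 12031 cpm. The 2 cardiac names in the files were not tested. Of the lymphoid and pan-leukocyte list, 4 of 9 were above 0, with a median of -0.13. The member with the highest fold, miR-142-3p, made in all blood cells, was at 4.33 and 4.999 cpm in CIA_B and 11.4 and 22.8 cpm in MS_A (log2 fold change 1.78, standard error 1.29). Without MS_A replicate 2 the fold was 1.12 on the log2 scale. On only the 4 libraries, edgeR and limma-voom called miR-142-3p higher.

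The 10 most abundant miRNAs held from 79.5% to 86.0% of the reads in the 4 libraries, and none was called. miR-10b-5p, encoded in a Hox cluster, was at 452283 and 205315 cpm in CIA_B and 551575 and 87816 cpm in MS_A, the widest range of the 10 in cpm. miR-22-3p, by contrast, was at 100212 and 119019 cpm against 137995 and 109956 cpm. miR-378a-3p, of a gene of oxidative metabolism, was at 34729 and 52972 cpm against 78974 and 51748 cpm. miR-133a-3p was the 1 of the 10 whose groups did not overlap, against 27% of all tested.

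**Figure D5:**
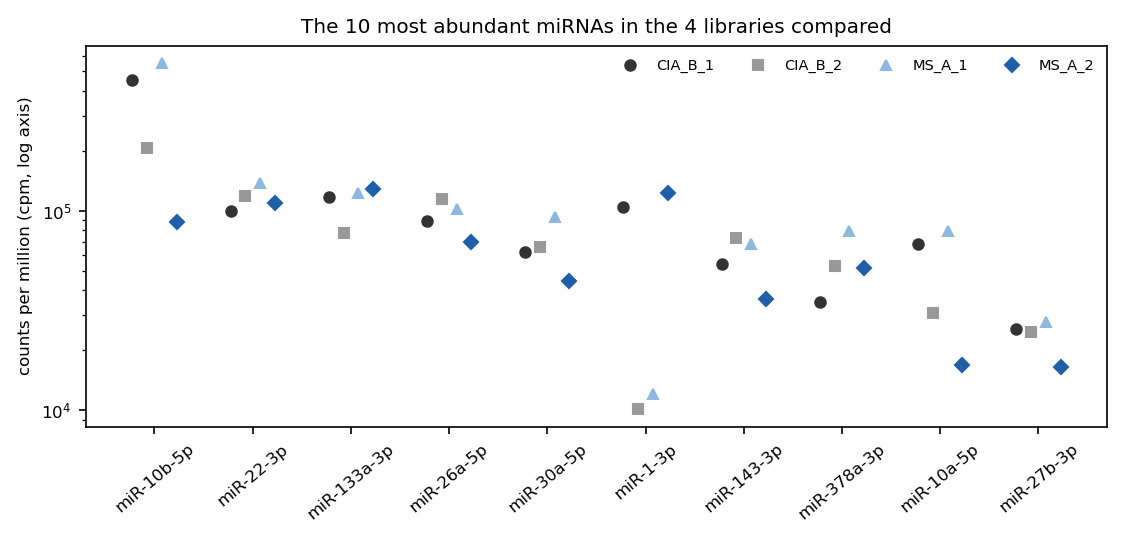
Levels in cpm on a log axis (y) of the 10 most abundant miRNAs (x) in each of the 4 libraries. The 2 libraries of a group lie far apart for miR-10b-5p, miR-10a-5p and miR-1-3p and close together for miR-22-3p.

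The ratio of the 3p to the 5p arm could be set for 67 hairpins with a mean of at least 20 counts in both arms. It was higher in both MS_A libraries than in both CIA_B libraries for 3, miR-127, miR-423 and let-7i, and lower for 6, miR-145, miR-143, miR-140, miR-30b, miR-339 and let-7e. For miR-127 the log2 ratio was 7.997 and 7.32 in CIA_B and 8.09 and 8.20 in MS_A. For miR-145, a smooth muscle miRNA, it was -0.85 and -0.63 against -1.19 and -2.41. The ranges of the 2 groups thus came close together, and no test was made of these ratios.

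Against the placebo of the same day, 7 of the 359 miRNAs (1.95%) passed the thresholds in MS_A, 1 higher (0.279%) and 6 lower (1.67%), none with an adjusted p under 0.05 in edgeR on all 10 libraries. Without PLA_A replicate 2, edgeR called 14, of which 1 had an adjusted p under 0.05. By DESeq2, 9 passed and 2 had an adjusted p under 0.05. With DESeq2's size factors in edgeR the calls were 2 higher and 5 lower, and with library totals only 0 and 8, a scaling that moved the median log2 fold change of all 359 from -0.02 to -0.34. The 6 lower were miR-142-3p, miR-142-5p, miR-150-3p, miR-342-3p, miR-342-5p and miR-363-3p. miR-142-5p was at 263 and 226 cpm in MS_A against 5854 and 551 cpm in PLA_A, so that the difference was carried mainly by PLA_A replicate 1, without which 2 miRNAs were called and none of the 7 remained. The 1 higher, miR-495 of the Dlk1-Dio3 cluster, was at 3.32 and 3.05 cpm in MS_A and 1.24 and 1.09 cpm in PLA_A. None of the 4 miRNAs called against CIA_B was called against PLA_A.

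Against stimulation at 1 h, 14 of the 359 (3.90%) passed, 1 higher (0.279%) and 13 lower (3.62%), none by adjusted p in edgeR on all 10 libraries and 5 by adjusted p in DESeq2. Without MS_E replicate 2, edgeR called 30, and 6 had an adjusted p under 0.05 (smallest 0.0017). Library totals only moved the median log2 fold change of all 359 here from 0.02 to -0.08. miR-675-3p, cut from the imprinted H19 RNA, was at 8.78 and 10.8 cpm in MS_A against 32.4 and 43.6 cpm in MS_E (adjusted p = 0.731 in edgeR, with a log2 difference of -1.91 ± 0.45, SE). In CIA_B it was at 11.2 and 11.3 cpm, close to MS_A. miR-30e-5p was the 1 higher, at 12792 and 9433 cpm against 4991 and 5982 cpm. miRNAs of ciliated and other epithelia among the 13, such as miR-449a-5p at 258 and 1.25 cpm in MS_E, were carried by MS_E replicate 1, without which 4 were called. Of the Dlk1-Dio3 cluster, 52 of 56 were lower in MS_A than in MS_E (170 of all 359), with a median of -0.93. Of these, 3 were called, miR-136-3p, miR-299a-5p and miR-382-3p (3.62% of all 359 were called lower).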

How the data were processed

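Members and lists were chosen with earlier results of these data known. Libraries were grouped by their labels, and nothing states that the 2 of a group come from separate animals, so p-values may measure technical spread. The authors prepared TruSeq small RNA libraries, used CASAVA 1.8 and miRDeep2 to align reads to rn4 and the rat sequences of miRBase, and deposited whole read counts per precursor without normalization. Since a read can count at several precursors, each mature miRNA was taken with its largest count. From these, TMM factors and the quasi-likelihood test of edgeR 4.0.16 were computed in R 4.3.3 with all 10 libraries in 1 fit, a prior count of 2 and Benjamini-Hochberg adjustment. Calls follow the thresholds of the study. limma 3.58.1 and DESeq2 1.42.0 were alternatives. Another 20 columns of a series table match no label and were not used. Named miRNAs are those called, the 12 smallest p-values and the 8 largest separated changes in each direction, those the study lists, other arms of called hairpins, the 10 most abundant and list members. Sequences and coordinates are RefSeq's on GRCr8, matched by name for 645 of 723. Floors of 3 counts cover counting error only.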

Additional observations from a re-analysis of the deposited data

How the results depend on the processing

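For MS_A against CIA_B the count of 4 became 2 with library totals only and 2 with a mean of at least 100 counts. It became 10 with the miR-1-3p term, 12 on only the 4 libraries and 10 with limma-voom on only these. With single libraries left out it ran from 2 to 7, the 2 without MS_A replicate 1, none of them among the 4, and the 7 without CIA_B replicate 2, sharing 2. None of these gave an adjusted p under 0.05 in edgeR, limma or DESeq2. For MS_A against PLA_A the count of 7 became 1 with limma-voom on all 10 libraries, 2 with a mean of at least 100 counts and 14 with the miR-1-3p term, and from 2 to 14 with single libraries left out, the 14 without PLA_A replicate 2, with 1 under an adjusted p of 0.05 in edgeR (0.027). For MS_A against MS_E the 14 became 9 with library totals only, 32 of 579 with no filter, 29 with the miR-1-3p term and 7 with limma-voom on only the 4 libraries, and from 4 to 30 with single libraries left out, the 30 without MS_E replicate 2, with 6 under an adjusted p of 0.05 in edgeR (smallest 0.0017).

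Libraries with the same replicate number did not deviate together in every pair of groups: the correlation of their deviations from the group means was -0.523 for MS_A and CIA_B, -0.554 for MS_A and PLA_A, 0.564 for MS_A and MS_E, and 0.634 for PLA_E and PLA_A. The numbers were therefore not taken as pairs. With a replicate block the 3 counts were 3, 4 and 14. The crossed pairing of the 4 libraries, chosen after the data were seen, called 28.

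Of the 31 fold changes recomputed for MS_A against CIA_B, 30 kept their direction under the alternatives that gave them a value (the minimum mean of 100 counts leaves many of them out), and that of miR-193-3p ran from -1.19 to 4.17 with single libraries left out, below 0 without MS_A replicate 2. Depth limits CIA_B most: 213 of the 359 tested miRNAs had more than 10 reads in its replicate 1, against 317 in replicate 2 and 293 and 343 in the MS_A libraries.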
